A study of Mus musculus with 6 samples.

Results

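The genes described here encode the mitochondrial ribosomal proteins, compared between antigen-specific CD8+ T cells of tumor and of spleen. A row of the deposited count table was taken as a member where its mouse gene symbol in GENCODE M21 began with Mrpl or Mrps followed by a digit and its biotype was protein_coding. The rule found 78 genes among 55335 rows, and left out 5 symbols of the same pattern with another biotype. Counts of a member ranged from 343 to 4895 in a library, so all 78 passed the filter on low counts that left 19783 genes to test.

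Both groups were P14 CD8+ T cells, which carry a transgenic T cell receptor for the GP33-41 peptide, in the C57BL/6 strain at 10 weeks of age. Mice bore B16 melanoma cells that express GP33-41, and the P14 cells were transferred on day 11 after tumor implantation. Donor P14 cells were then sorted by flow cytometry from the tumor (P14 TIL, 3 libraries) and from the spleen of tumor-bearing mice (P14 Sp, 3 libraries). The question is which transcripts of these cells differ between the place where their antigen is made and a lymphoid organ. The controls therefore also met a tumor-bearing host, and no naive or untransferred P14 cells enter the comparison. Tumor leukocytes alone passed over Percoll before the sort. The labels do not say whether libraries came from separate mice or pools, and p-values therefore refer to the spread among these libraries alone, part of which may be technical.

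Mitochondria carry their own ribosome, which makes the few membrane proteins of the respiratory chain that the mitochondrial genome still encodes. Its ribosomal RNAs come from that genome, but every protein of it is encoded in the nucleus, made in the cytosol and imported. Many of its proteins descend from bacterial ribosomal proteins and others exist only in mitochondria. In T cells, mitochondrial translation is known to be needed for clonal expansion and for sustained killing.

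Library totals lay between 35095261 and 38263483 counts, from single reads of 50 bases. T cell markers were abundant in every library. The summed level of the 9 genes was 3570 to 3720 CPM (counts scaled by the library total) in tumor and 4130 to 4200 in spleen, with Cd5 higher, Cd2, Cd247 and Lck lower and 5 not passed. Both CD8 chains were abundant and moved in opposite directions: Cd8a was at 645 CPM in tumor and 364 in spleen, a log2 fold change of 0.85, and Cd8b1 at 751 and 1170, a log2 fold change of -0.62. Markers of other cells moved with the tissue in both directions. The 10 B cell markers summed to 10.7 to 12.8 CPM in tumor and 548 to 565 in spleen, with Cr2 at 0 in every tumor library and all 10 lower there. The 10 macrophage and monocyte markers summed to 41.1 to 42.7 and 270 to 286 CPM, the 7 dendritic cell markers to 45.2 to 49.1 and 164 to 169, and all 17 were lower in tumor, Clec9a and Siglech being at 0 there. The 4 tested of 5 neutrophil markers and all 4 platelet markers were also lower in tumor, where the lists summed to at most 0.795 and 0.411 CPM, with Gp9 at 0. Erythroid markers summed to 177 to 192 CPM in tumor and 144 to 148 in spleen, with 4 higher. The 3 NK cell markers summed to 4.44 to 6.46 and 3.85 to 4.73 CPM, with Klra8 higher. A list of 3 CD4 T cell markers summed to 30.4 to 31.6 CPM in tumor and 25.4 to 27.6 in spleen, with 1 higher and 1 lower. Since these markers went both ways, their sum gives no direction for RNA of CD4 T cells. The 7 melanoma markers summed to 9.65 to 10.9 CPM in tumor and 19.4 to 21.4 in spleen. Of these, Pmel was lower and Dct was higher, at 0.439 to 0.47 CPM in tumor and at most 0.0266 in spleen, where Tyrp1 was at 0. A list of 16 genes known to respond to tissue dissociation summed to 5130 to 5300 CPM in tumor and 2270 to 2310 in spleen, and 14 of them were higher. The part of these differences in the results below was not tested. The sample descriptions hold codes whose ending is common to all tumor libraries and differs from the ending seen in spleen. A batch of that kind, if there was one, cannot be told apart from the tissue. In bulk RNA, fewer cells of a type and less RNA per cell cannot be told apart.

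Most mitochondrial ribosomal protein transcripts were at a higher level, relative to all counts of a library, in P14 TIL than in P14 Sp. Of the 78 genes tested, 62 rose, 1 fell (Mrpl58) and 15 did not pass the test (edgeR quasi-likelihood F-test, Benjamini-Hochberg adjusted p below 0.05). Among all genes tested, 34.8% were higher and 35.9% lower, against 79.5% and 1.28% of the members. The median log2 fold change of the members was 0.43, a 1.35-fold difference, with the middle of the list from 0.20 to 0.71. Over all genes tested the median was -0.02. Restricted to the 7581 genes whose mean level lay in the range of the members, 13.8 to 107 CPM, 41.2% were higher, 34.9% were lower and the median was 0.06.

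Most of these differences were modest. With a null interval of 1.5-fold (edgeR glmTreat), 20 members were higher and 0 lower, where 14.9% and 17.5% of all genes were called. At an unadjusted p under 0.05 the same test had 22 higher and 0 lower, and no other tool was run with this null. The 5 members with a difference of 2-fold or more were Mrps6, Mrpl45, Mrps28, Mrps18b and Mrpl12. In 65 members every tumor library lay above every spleen library after TMM scaling, and in 2 members, Mrpl33 and Mrpl58, every tumor library lay below. Among all genes, 36.5% separated upward and 38.1% downward. Upper-quartile scaling gave 56 higher, 2 lower and 12 higher at the 1.5-fold null, and a correction for GC content and length gave 54 higher and 5 lower. Those 5 were Mrpl27 at -0.24, Mrps18c at -0.23, Mrpl24 at -0.17, Mrps24 at -0.16 and Mrpl58 at -0.13.

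**Figure D1:**
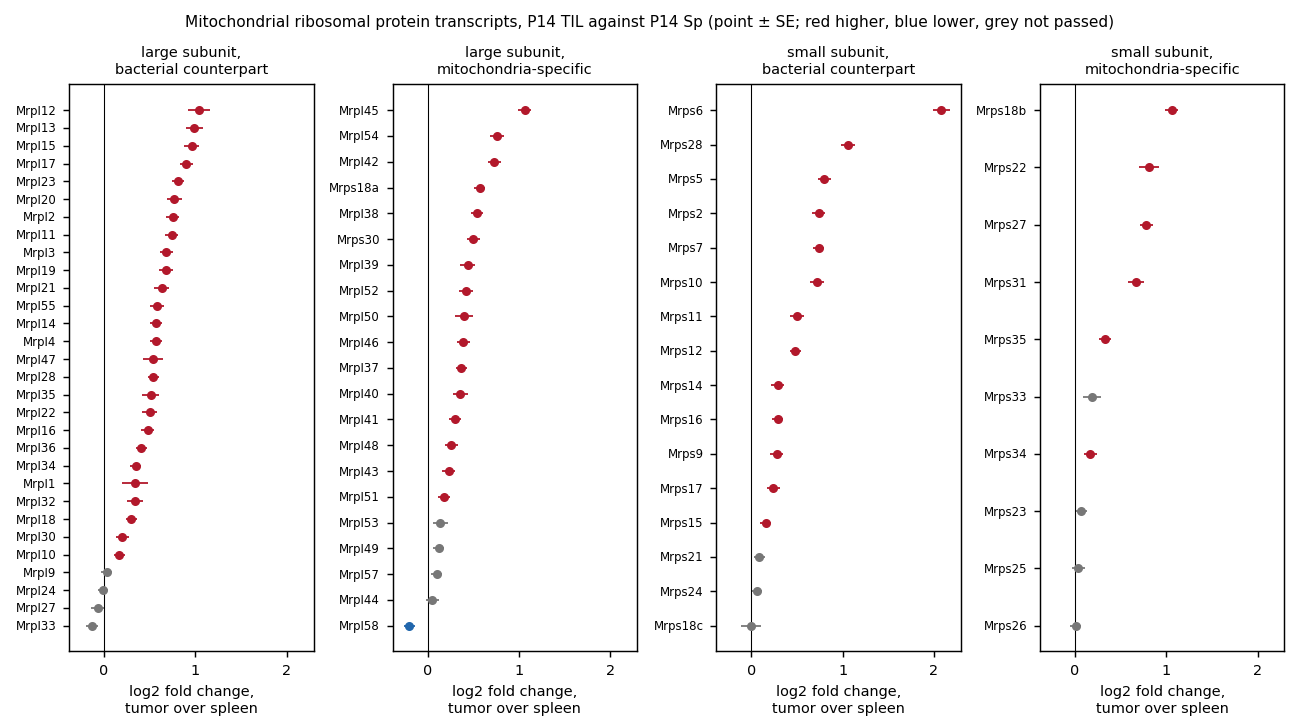
Log2 fold change of P14 TIL over P14 Sp (horizontal axis, point and SE) for 77 mitochondrial ribosomal protein genes in 4 panels by subunit and origin (Mrps36 is not drawn); red points rose, the blue point fell and grey points did not pass. Most points lie between 0 and 1, Mrps6 stands at 2.08 and Mrpl58 at -0.20.

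Summed over all 78 members, tumor libraries held 3245, 3346 and 3436 CPM and spleen libraries 2505, 2488 and 2566 CPM. The lowest tumor library thus lay well above the highest spleen library, and the members made up 0.325% to 0.344% of counts in tumor and 0.249% to 0.257% in spleen. Levels per length were taken in CPM per kilobase of the principal transcript. Their rank correlation between the tissues was 0.929 across the 78 genes, which share the same 6 libraries. Both tissues were divided by the same lengths, from 418 bases in Mrpl52 to 7300 in Mrpl17. The shared divisor by itself raises this value, so it does not show how far the order of expression was kept. The median level per length was 21.6 in spleen and 30.6 in tumor.

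Promoters of members at the ends of the range are shown because the same family held a 4.23-fold rise and a small fall. Windows from 250 bases before to 50 bases after a RefSeq gene start (GRCm38.p6) were matched for 69 members. Mrpl13, Mrpl15, Mrpl19, Mrpl38, Mrpl4, Mrpl54, Mrps28, Mrps34 and Mrps35 were not matched. The stretches below run from 5′ to 3′ on the plus strand and end at the last base before the gene start, or before the first GENCODE transcript base for Mrps6. Capitals mark GC boxes (GGGCGG or its reverse complement CCGCCC, in Mrps6) and the ETS word (CCGGAAG or CTTCCGG, in Mrpl58). They are Mrps6 at chr16:92058086-92058269, Mrpl45 at chr11:97315466-97315715 and Mrpl58 at chr11:115403502-115403751.
Mrps6: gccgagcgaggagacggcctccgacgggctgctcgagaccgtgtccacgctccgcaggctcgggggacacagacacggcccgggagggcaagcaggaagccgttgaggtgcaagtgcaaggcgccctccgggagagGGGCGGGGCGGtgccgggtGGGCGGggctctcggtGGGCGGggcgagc
Mrpl45: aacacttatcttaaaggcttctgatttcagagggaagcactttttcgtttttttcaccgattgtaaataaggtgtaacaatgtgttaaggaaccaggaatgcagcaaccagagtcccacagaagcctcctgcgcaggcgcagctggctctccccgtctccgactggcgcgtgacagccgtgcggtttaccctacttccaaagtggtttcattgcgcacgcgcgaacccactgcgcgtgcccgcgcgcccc
Mrpl58: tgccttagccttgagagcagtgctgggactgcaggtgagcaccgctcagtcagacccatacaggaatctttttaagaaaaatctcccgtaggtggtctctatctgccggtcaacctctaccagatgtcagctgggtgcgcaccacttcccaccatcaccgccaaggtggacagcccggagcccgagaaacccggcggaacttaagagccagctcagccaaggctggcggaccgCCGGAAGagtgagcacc

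Mrps6 held 4 GC boxes, 114 to 74 bases before its RefSeq start, of which the first 2 share a base. Mrpl45 held none of the 5 words searched, and Mrpl58 had an ETS word 17 to 11 bases before its start and another that crosses or follows the start, outside the stretch printed. The words were searched on both strands of the whole 300-base windows, each without regard to the others. The ETS word was in 26 of 69 member promoters, 37.7%, against 9.93% of 27025 genes and 12.9% of 17492 protein-coding genes. A YY1 word (AAGATGGC or GCCATCTT) was in 12, 17.4%, against 3.19% and 3.57%. The NRF1 core (GCATGCGC or GCGCATGC) was in 8, 11.6%, against 3.05% and 3.94%. The E-box CACGTG, the word bound by MYC and its partners, was in 5, 7.25%, against 8.09% and 8.91%, and the GC box in 34, 49.3%, against 38.2% and 49.2%. ETS, YY1 and NRF1 words were thus more frequent among the members than among protein-coding genes, a difference that was not tested. Members with the ETS word had a median log2 fold change of 0.28 and the other 43 of 0.48. For YY1 the medians were 0.49 and 0.36, for NRF1 0.39 and 0.40, for the E-box 0.41 and 0.40, and for the GC box 0.35 and 0.44. A match is only a run of letters, and binding was not measured.

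Members were classed by subunit and by whether the current naming of ribosomal proteins gives them a bacterial counterpart. Mrps18a and Mrps18b, paralogs of bacterial descent that the naming treats as mitochondrial, were classed as mitochondria-specific. Proteins of the large subunit with a bacterial counterpart rose most often. Of these 30 genes, 26 were higher and 4 did not pass, with a median log2 fold change of 0.54. Mrpl12, the protein of the flexible stalk that recruits translation factors and is also known to bind the mitochondrial RNA polymerase, was at 96.0, 91.3 and 67.5 CPM in tumor and 40.6, 42.0 and 43.9 CPM in spleen. Tumor replicate 3 was lower than the other tumor libraries but still above all spleen libraries. The difference was 1.04 ± 0.12 (log2 fold change ± SE, adjusted p = 1.05e-05). The stalk base proteins Mrpl11 and Mrpl10 also rose, by 0.74 and 0.17.

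Mrpl13, whose bacterial counterpart binds the large ribosomal RNA early in assembly, was at 42.7, 49.2 and 55.7 CPM in tumor and 27.3, 24.5 and 24.1 CPM in spleen. Mrpl15, whose bacterial counterpart reaches into the core of the subunit, was at 63.4, 71.3 and 79.8 CPM in tumor and 38.7, 36.4 and 37.1 CPM in spleen. In both genes the tumor libraries spread more widely than the spleen libraries, without overlap. Their log2 fold changes were 0.99 ± 0.09 (adjusted p = 2e-06) and 0.96 ± 0.08 (adjusted p = 6.05e-07).

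Mrpl17, next to the tunnel through which the new chain leaves, was at 60.1, 55.6 and 60.4 CPM in tumor and 30.1, 31.7 and 34.6 CPM in spleen. The lowest tumor library was far above the highest spleen library, with a log2 fold change of 0.90 ± 0.07 (adjusted p = 6.47e-07). Of 6 proteins near the exit tunnel, a list that does not hold all of them (Mrpl17, Mrpl22, Mrpl23, Mrpl24, Mrpl45 and Mrpl47), 5 rose, with a median of 0.68, and Mrpl24 stood at -0.01.

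The 4 bacterial-type proteins of the large subunit that did not pass were Mrpl9, Mrpl24, Mrpl27 and Mrpl33. Mrpl33, a small basic protein, was at 50.2, 59.0 and 61.4 CPM in tumor and 63.5, 61.7 and 64.8 CPM in spleen. Tumor replicate 1 lay apart below the other 2, the tissues did not overlap, and the log2 fold change was -0.13 ± 0.07 (adjusted p = 0.132). Without tumor replicate 3 this gene passed, at -0.17 with an adjusted p of 0.0302. Mrpl27, which lies close to the peptidyl transferase centre, was at 24.4, 23.5 and 25.4 CPM in tumor and 26.0, 25.5 and 26.8 CPM in spleen, with a log2 fold change of -0.07 ± 0.07 (adjusted p = 0.404). After TMM scaling the tissues overlapped, tumor replicate 3 lying just above spleen replicate 2. Mrpl24 was at 40.1, 40.8 and 43.4 CPM against 40.4, 42.4 and 44.5 CPM, and Mrpl9 at 41.5, 39.3 and 41.1 CPM against 39.7, 40.7 and 41.1 CPM. For both, libraries of the tissues were interleaved (adjusted p of 0.942 and 0.632).

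**Figure D2:**
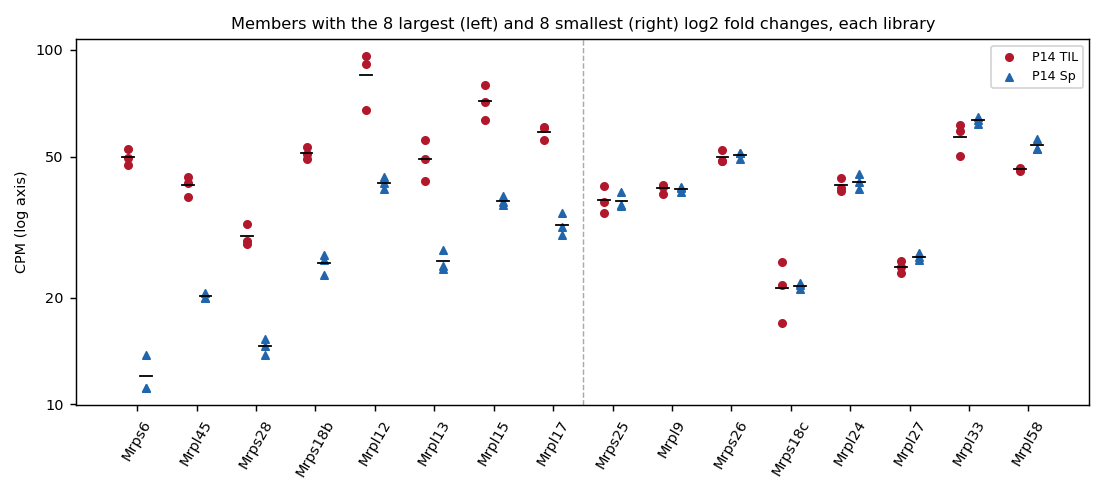
CPM in each library (log axis) of the 8 members with the largest and the 8 with the smallest log2 fold change, tumor as circles and spleen as triangles, with the group mean as a bar. On the left no tumor library overlaps a spleen library. On the right most members overlap, and Mrpl58, Mrpl33 and, by a narrow step, Mrpl27 lie lower in tumor.

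Mitochondria-specific proteins of the large subunit followed, with 16 of 21 higher, 1 lower and 4 not passed, and a median of 0.37. Mrpl45, which anchors the ribosome to the inner membrane near the tunnel exit, and whose promoter is shown above, was at 38.4, 42.2 and 43.8 CPM in tumor. In spleen, 731, 754 and 722 counts gave 20.2 ± 0.326 CPM (SD, n = 3). Spleen libraries were nearly equal and every tumor library was far above them, with a log2 fold change of 1.06 ± 0.07, or 2.09-fold (adjusted p = 1.06e-07). Mrpl54 and Mrpl42 came next, at 0.76 and 0.73.

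Mrpl58, a peptidyl-tRNA hydrolase built into the central protuberance that can free stalled chains and whose promoter is shown above, was the 1 member that fell. It was at 46.1, 46.5 and 45.5 CPM in tumor and 52.5, 52.6 and 56.2 CPM in spleen. Tumor libraries were nearly equal and all below the spleen libraries, with a log2 fold change of -0.20 ± 0.06, or 1.14-fold lower (adjusted p = 0.0136). Without spleen replicate 3, its highest library, the call was lost, at -0.16 and an adjusted p of 0.075. Of other proteins of the central protuberance, Mrpl38, Mrpl40, Mrpl46 and Mrpl48 rose by 0.54, 0.36, 0.39 and 0.26. Mrpl18 and Mrpl55, which also lie there, rose by 0.30 and 0.58, and Mrpl27 did not pass.

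The 4 genes of this class that did not pass lay between 0.05 and 0.14. Mrpl44, an RNase III-like protein, was at 23.9, 25.5 and 23.6 CPM in tumor and 23.6, 23.7 and 24.6 CPM in spleen, with the tissues interleaved (adjusted p = 0.511). Mrpl49 was at 32.0, 31.1 and 31.3 CPM against 29.5, 30.3 and 29.0 CPM, and Mrpl57 at 51.6, 49.7 and 48.9 CPM against 46.9, 47.9 and 47.7 CPM. Both separated without overlap by small steps (adjusted p of 0.124 and 0.142). Mrpl53 was at 20.9, 18.2 and 18.4 CPM against 17.5, 18.2 and 17.6 CPM, with tumor replicate 1 apart from the other libraries (adjusted p = 0.165).

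In the small subunit, 13 of 16 proteins with a bacterial counterpart were higher and 3 did not pass, with a median of 0.38. Mrps6, which sits on the platform of the small subunit and whose promoter is shown above, had the largest difference of all members. It was at 47.3, 49.6 and 52.5 CPM in tumor and 11.1, 11.1 and 13.8 CPM in spleen. The tissues were far apart, with a log2 fold change of 2.08 ± 0.09, or 4.23-fold (adjusted p = 4.64e-09), where the next member stood at 1.06. The gene (chr16:92058270-92112227, plus strand, GRCm38) overlaps exons of Slc5a3, a myo-inositol transporter, and of Gm49711 on its own strand. The overlaps with the 2 genes sum to 464 bases, and a base shared with both is counted for each. These 2 genes were also higher, by 1.75 (13.3 ± 0.774 against 4.03 ± 0.387 CPM, SD, n = 3) and 1.97 (16.5 ± 0.846 against 4.30 ± 0.578 CPM, SD, n = 3). Gene counts do not tell which transcripts of this locus gave the reads.

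Mrps28 was at 32.2, 28.4 and 28.8 CPM in tumor and 13.8, 14.6 and 15.3 CPM in spleen. Its lowest tumor library was above its highest spleen library by a wide margin, with a log2 fold change of 1.06 ± 0.08 (adjusted p = 5.42e-07). Mrps18c, Mrps21 and Mrps24 did not pass. Mrps18c was at 17.0, 21.7 and 25.2 CPM in tumor and 22, 21.7 and 21.2 CPM in spleen, so the tumor libraries lay on both sides of the spleen libraries and the fitted difference was 0.00 ± 0.11 (adjusted p = 0.972). Mrps24 was at 59.9, 62.2 and 61.4 CPM in tumor and 59.9, 56.7 and 63.5 CPM in spleen, with overlap (0.06 ± 0.06, adjusted p = 0.433). Mrps18b and Mrps18c descend, with Mrps18a, from a common bacterial protein, and stood at 1.06, 0.00 and, for Mrps18a, 0.57. Of these 3 paralogs Mrps18b and Mrps18a passed the test.

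Mitochondria-specific proteins of the small subunit had the lowest median of the 4 classes, 0.26, with 6 of 10 higher and 4 not passed. With Mrps18a and Mrps18b counted by descent instead, a choice made after seeing the data, 5 of 9 were higher with a median of 0.19, and 14 of 17 bacterial-type proteins of the small subunit were higher with a median of 0.48. In the large subunit these were 15 of 20 with 0.36 and 27 of 31 with 0.54. Mrps18b was at 49.2, 50.9 and 53.1 CPM in tumor and 25.5, 23.2 and 26.3 CPM in spleen, a clear separation with a log2 fold change of 1.06 ± 0.07 (adjusted p = 1.12e-07). Mrps22, Mrps27 and Mrps31 also rose, by 0.81, 0.78 and 0.67. Mrps26 was at 52.1, 48.6 and 48.6 CPM in tumor and 51.3, 49.2 and 51.0 CPM in spleen. Mrps25 was at 34.7, 37.2 and 41.2 CPM in tumor and 36.3, 36.5 and 39.7 CPM in spleen. Both overlapped between the tissues, with log2 fold changes of 0.01 ± 0.06 (adjusted p = 0.911) and 0.04 ± 0.07 (adjusted p = 0.678). Mrps23 was at 47.6, 49.3 and 50.7 CPM in tumor and 48.3, 46.3 and 48.3 CPM in spleen (0.07 ± 0.06, adjusted p = 0.27). Mrps33 was at 30.2, 31.0 and 40.0 CPM in tumor and 29.9, 28.7 and 31.6 CPM in spleen, with tumor replicate 3 apart above the rest (0.19 ± 0.10, adjusted p = 0.0978). Mrps36, named as a small-subunit protein but now placed in the 2-oxoglutarate dehydrogenase complex, rose by 0.65.

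By subunit, 42 of 51 large-subunit genes and 19 of 26 small-subunit genes rose, with medians of 0.44 and 0.31. Whether the classes differ was not tested. The ratio of summed small-subunit to summed large-subunit CPM was 0.465, 0.472 and 0.474 in tumor and 0.483, 0.476 and 0.488 in spleen. Tumor libraries lay below spleen libraries by a small step, with means of 0.470 ± 0.00473 and 0.482 ± 0.00603 (SD, n = 3, two-sided exact permutation p = 0.1, the smallest that 3 against 3 can give).

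Levels per length in spleen spanned a 30.6-fold range among the members. The highest were Mrpl33 at 133 ± 3.20, Mrps21 at 84.8 ± 2.85 and Mrpl4 at 68 ± 3.03 CPM per kilobase (SD, n = 3). This order depends on the transcript model, since with all annotated exons as the length Mrps21 ranks 1, Mrpl4 ranks 7 and Mrpl33 ranks 51, while Mrpl18 and Mrpl34, which rose by 0.30 and 0.35, rank 2 and 3. Mrpl4, an early-assembling protein of the large subunit, had the highest CPM without regard to length, at 134, 127 and 120 in tumor and 88.6, 90.9 and 83.3 in spleen. It rose by 0.57 ± 0.07 (adjusted p = 1.3e-05), each tumor library standing above each spleen library. Mrps21, a small protein of the small subunit, was at 40.9, 45.7 and 43.2 CPM against 42.6, 39.8 and 41.7 CPM, with overlap (0.09 ± 0.06, adjusted p = 0.218). Across all 78 members the log2 fold change had a Pearson r of -0.15 and a Spearman rho of -0.20 with the mean log2 CPM, 0.01 and 0.01 with transcript length, and 0.09 and 0.11 with GC content.

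The median coefficient of variation of scaled CPM was 5.41% in tumor and 3.32% in spleen, against 10.1% and 5.48% over all genes tested. Over the 7581 genes in the level range of the members it was 7.29% and 3.41%, so that in spleen the members hardly differed from genes of like level. Within tumor, replicate 1 was the lowest library for 38 members, 48.7%, where 35.2% of all genes had their lowest tumor value in it. Within spleen, replicate 3 was the highest for 47 members, 60.3%, against 36.0% of all genes. Without tumor replicate 1 the median rose to 0.48 with 62 members higher, and without spleen replicate 3 it was 0.45 with 58 higher.

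Many members start head to head with another gene. For 23 of them a protein-coding gene starts on the opposite strand, from 1000 bases upstream to 300 bases downstream of the member's start, and in 22 pairs both genes were tested. Of the 22 members, 17 rose and 5 did not pass. Of their partners, 10 rose, 8 fell and 4 did not pass, with medians of 0.36 for the members and 0.11 for the partners. Over all genes tested, 34.8% were higher and 35.9% lower, and whether the partners differ from these shares was not tested. In 8 pairs the member rose while its neighbour fell. Of these 8 members, Mrps34 lost its call under 10 of 14 alternative settings of the fit, Mrpl30 under 6 and Mrpl41 under 1. Mrps18b rose by 1.06 while Ppp1r10, a phosphatase subunit whose start lies 45 bases away, fell by 0.55 (44.9 against 67.2 CPM, adjusted p = 5.12e-06). Mrpl30 rose by 0.20 beside Mitd1, 66 bases away, which fell by 1.16, and Mrpl41 rose by 0.30 beside Pnpla7, a lysophospholipase 935 bases away, which fell by 1.44. The opposite order also occurred. Mrpl44 stood at 0.05 beside Wdfy1 at 0.82 (adjusted p = 2.15e-07), and Mrpl27 at -0.07 beside Eme1 at 0.78 (adjusted p = 1.36e-06). Mrpl46 and Mrps11, which overlap head to head, rose by 0.39 and 0.50.

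**Figure D3:**
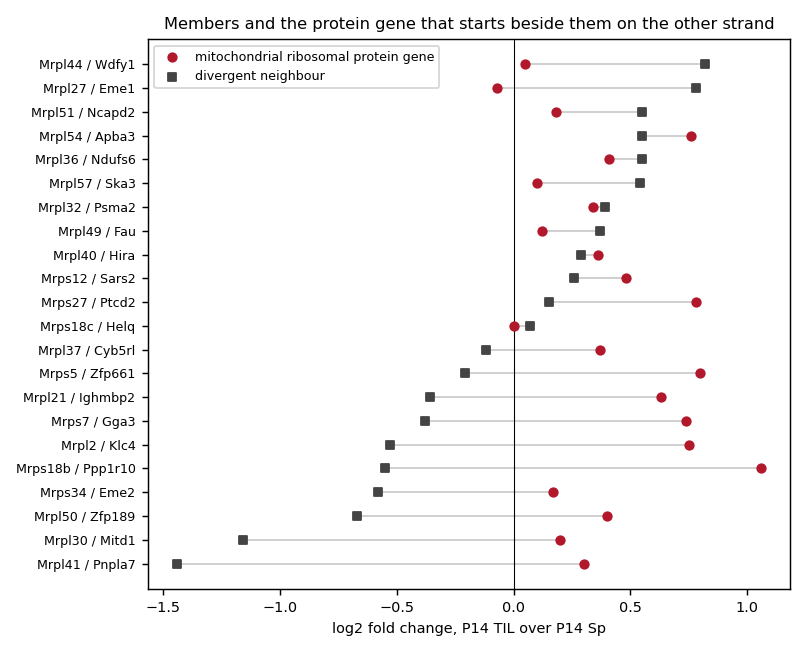
Log2 fold change, P14 TIL over P14 Sp, of 22 members (circles) and of the protein-coding gene that starts beside each on the other strand (squares), ordered by the neighbour. Circles lie between -0.07 and 1.06 while squares span -1.44 to 0.82.

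Several members share sequence with other rows of the table, and the sources used here do not state whether reads with several matches or on the other strand were counted. In 16 members the transcript matched a gene elsewhere over at least 300 bases at 95% identity or more. Of 18 such copies that were tested, 16 lay within 0.2 of their member on the log2 fold change scale, with a median absolute difference of 0.08. Mrpl23-ps1, identical to Mrpl23 over 540 bases, collected more counts than the gene itself, 5651 against 3792 in tumor and 3071 against 2175 in spleen, and stood at 0.89 against 0.81. Gm13552, a copy of Mrps18b at 99.76% identity, stood at 1.14 against 1.06. Mrpl48-ps differed most from its member, at 0.58 against 0.26. Values of these members are uncertain to the extent that reads were divided between the copies.

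**Figure D4:**
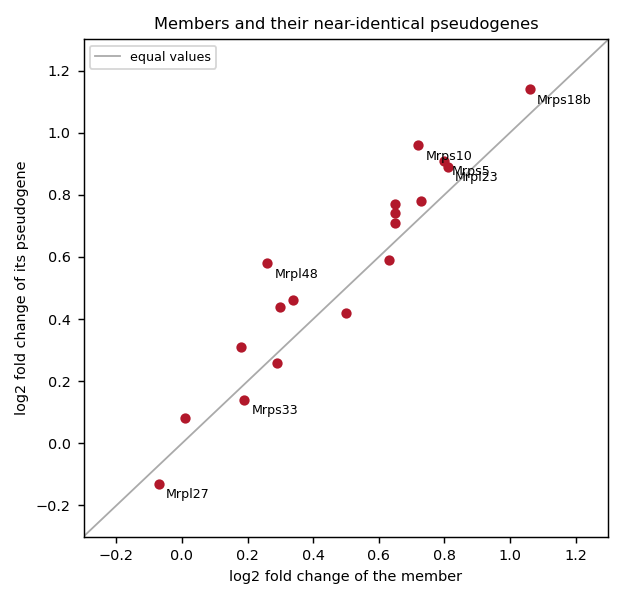
Log2 fold change of each member (horizontal axis) and of its near-identical pseudogene elsewhere in the genome (vertical axis), P14 TIL over P14 Sp, with the line of equal values. Of 18 points, 16 lie within 0.2 of the line and Mrpl48 lies farthest from it.

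Exons of 33 members overlap another gene, 28 of them on the opposite strand and 8 on the same strand, with Mrpl3, Mrpl53 and Mrps34 in both sets. Of these 33, 21 rose and 1 fell, with a median of 0.26. Mrps18b overlaps the antisense gene Gm16279, which rose by 1.03, and Mrpl58 overlaps Ict1os by 2 bases. Other overlapping genes went against their member. Mrpl53, at 0.14, shares 695 bases on its own strand with Gm42688, at -0.48. Gm42688 collected 2733 counts in tumor and 3826 in spleen, against 2126 and 1947 of Mrpl53. Mrps34, at 0.17, shares 763 bases on its own strand with Nme3, at -0.55. How reads were divided at these loci was not tested. Of the 35 members with neither an overlap nor a copy, 32 rose, or 91.4%, and 3 did not pass, with a median of 0.48. Of the 43 members with an overlap or a copy, 30 rose, or 69.8%, with a median of 0.34.

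The other genes of mitochondrial translation did not all move with the ribosomal proteins. All 5 further subunits named otherwise rose: Dap3 by 0.81, Chchd1 by 0.68, Ptcd3 by 0.63, Gadd45gip1 by 0.45 and Aurkaip1 by 0.25. Corrected for GC content and length, Aurkaip1 did not pass, at 0.02 and an adjusted p of 0.644. Of 28 genes that assemble the ribosome or modify its RNA, 10 rose, 3 fell and 15 did not pass, with a median of 0.09. The share that rose, 35.7%, was close to the 34.8% of all genes tested. The share that fell was 10.7%, against 35.9% of all genes. Afg3l2, a protease that matures Mrpl32, rose by 0.77, Rcc1l by 0.88 and the GTPase Noa1 by 0.64. Mettl17 fell by 0.47, Ngrn by 0.38 and the pseudouridine synthase Rpusd4 by 0.20. The fall of Rpusd4 was lost without tumor replicate 1 (adjusted p = 0.0718) and without spleen replicate 1, 2 or 3 (adjusted p of 0.069, 0.0605 and 0.0799), and with no filter on low counts (adjusted p = 0.0691). Falls in this list numbered 6 with upper-quartile scaling, 7 with the GC and length correction and 5 without tumor replicate 1. Among 11 initiation, elongation, release and recycling factors, 5 rose (45.5%) and 1 fell (9.09%). Falls numbered 3 with upper-quartile scaling or without tumor replicate 3, and 2 without tumor replicate 2. Rises numbered 4 with upper-quartile scaling, without tumor replicate 2 and without spleen replicate 1, 2 or 3. With the GC and length correction 6 rose. The elongation factors Tsfm and Gfm1 rose by 0.87 and 0.74 and the recycling factor Mrrf by 0.88, while Mtfmt, which formylates the initiator tRNA, fell by 0.38.

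Of 5 genes that handle mitochondrial messenger RNA or insert new chains into the membrane, Lrpprc rose by 0.70 and Cox18 by 0.36. This was 40.0% of the list, against 34.8% of all genes tested. Of 5 genes of mitochondrial transcription, Mterf1a fell by 0.98 and Tfb2m by 0.34, which is 40.0% against 35.9% of all genes tested. The other 3 did not pass. Among those 3 was Polrmt, the mitochondrial RNA polymerase, at -0.22 (adjusted p = 0.0594). It passed as lower under 7 of 14 alternatives, at -0.28 to -0.19 (adjusted p of 0.00794 to 0.0462), among them the replicate number as a block and leaving out tumor replicate 1. Tfam, at -0.15 (adjusted p = 0.156), passed as lower only without tumor replicate 3, at -0.25 (adjusted p = 0.00184). Corrected for GC content and length, Cox18 stood at 0.18 (adjusted p = 0.0364). The 2 ribosomal RNAs of the mitochondrial ribosome carry only short tails, and their counts describe what the library kit captured. The large-subunit RNA mt-Rnr2 was at 440, 860 and 844 CPM in tumor and 1310, 1240 and 1370 CPM in spleen. It was lower in every tumor library, most in replicate 1, by -0.85 ± 0.19 (adjusted p = 0.00168). The small-subunit RNA mt-Rnr1 was at 29.9, 56.2 and 63.0 CPM against 62.1, 62.3 and 67.1 CPM. Tumor replicate 1 was again the lowest and replicate 3 overlapped the spleen libraries (-0.34 ± 0.19, adjusted p = 0.14). It passed without tumor replicate 3, at -0.52 (adjusted p = 0.0145), and with the replicate number as a block, at -0.39 (adjusted p = 0.0361), and with no filter on low counts, at -0.32 (adjusted p = 8.3e-05).

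Compared with 3 related families in the same fit, the mitochondrial ribosomal proteins lay nearest to the nuclear-encoded respiratory subunits, a list picked by gene symbol. Of its 79 rows tested, 60 rose and 2 fell, with a median of 0.39. Atp5o has more than 1 row among them, at 0.434 and 0.454. With the GC and length correction these were 55 and 8, with a median of 0.25. None fell without tumor replicate 2 or spleen replicate 1, 1 fell without tumor replicate 1 or spleen replicate 3, and 3 fell without tumor replicate 3. Of 79 cytosolic ribosomal proteins, 77 rose, with a median of 0.70. With the GC and length correction 74 of them rose and 2 fell, with a median of 0.59. The 13 protein genes of the mitochondrial genome, whose messenger RNAs this ribosome translates, all fell, with a median of -1.48 and a median tumor coefficient of variation of 31.7%. With DESeq2 and with the GC and length correction 12 of the 13 fell. Differences between these families were not tested. The share of members higher at the 1.5-fold null was 25.6%, against 11.4% of the respiratory subunits and 46.8% of the cytosolic ribosomal proteins.

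**Figure D5:**
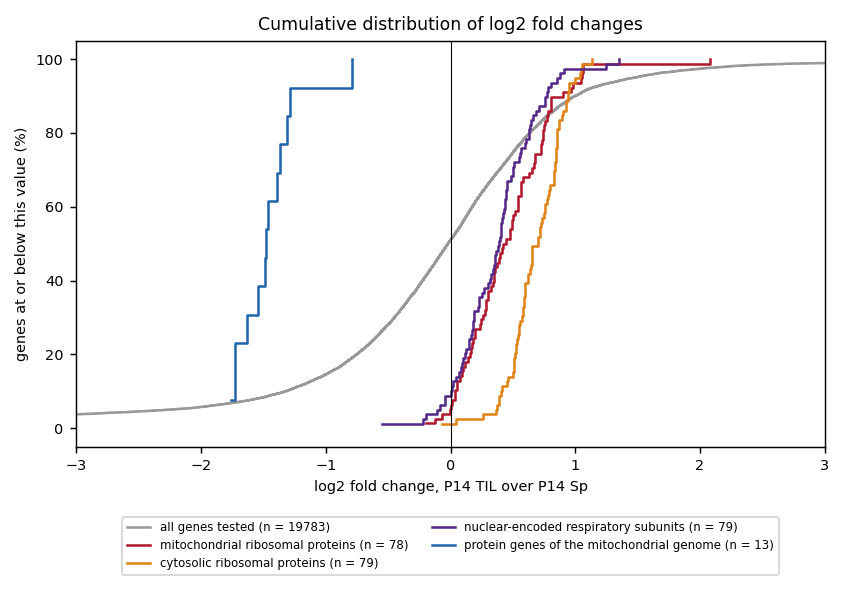
Cumulative share of genes (vertical axis, percent) at or below each log2 fold change of P14 TIL over P14 Sp (horizontal axis, cut at -3 and 3) for all 19783 genes tested and 4 families. The curve of the mitochondrial ribosomal proteins crosses the middle at 0.43, between those of the respiratory subunits and the cytosolic ribosomal proteins, while the mitochondrial genome lies at the left with a median of -1.48.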

How the data were processed

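The deposited values were whole-number read counts per gene in 6 libraries, without normalization. Per the submitters' processing notes, the authors used bcl2fastq 2.20.0.422, STAR 2.3, featureCounts and mm10. The version of featureCounts, its annotation, its strand setting and its rule for reads that match several places: none was given in the sources used here. Identifiers were matched to GENCODE M21, and all 78 members matched with their version.

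R 4.3.3 and edgeR 4.0.16 were used for the quasi-likelihood F-test on these counts (scaled by TMM, filterByExpr with a minimum count of 10 and minimum total of 15, Benjamini-Hochberg threshold 0.05) with tissue as the only factor, and with glmTreat at 1.5-fold. The SE was taken as the size of the log2 fold change over the square root of F. CPM values are counts over library totals, and separation of libraries was judged on TMM-scaled CPM. The procedure was tested on simulated data. Near-identical copies were found with blastn 2.17.0. Levels per length used the APPRIS principal transcript. Reads carry no molecular identifiers and may repeat molecules.

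The members, the gene lists and the tests were chosen with earlier results of these data known. Every member could be named, and all 6 libraries are given for the 8 largest and 8 smallest log2 fold changes, the 3 highest levels per length in spleen and members that a count of 5 or fewer singles out. Of other pathway lists up to 3 genes with the smallest p in each direction are named, and the overlapping, neighbouring and copied genes named were picked after their values were seen. Alternatives were other scalings, no filter, DESeq2 1.42.0, limma-voom (limma 3.58.1), a replicate block, a correction for GC content and length, and leaving out each library. The result of 1 marker gene is not reported here.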

Additional observations from a re-analysis of the deposited data

How the results depend on the processing

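Of 63 called members, 50 kept call and direction under all 14 alternatives and 13 lost the call under at least 1: Mrpl1, Mrpl10, Mrpl18, Mrpl30, Mrpl34, Mrpl40, Mrpl41, Mrpl43, Mrpl48, Mrpl51, Mrpl58, Mrps15 and Mrps34. Mrps15 also changed direction, and 8 members not called gained a call. Members higher numbered 54 to 62 over the alternatives. Leaving out each library gave 54 to 62 higher, 0 to 2 lower, 15 to 24 higher at the 1.5-fold null and medians of 0.41 to 0.48. Upper-quartile scaling, which moved the median of all genes from -0.02 to -0.07, gave a median of 0.38, 56 higher, 2 lower (Mrpl33 with Mrpl58) and 12 higher at the 1.5-fold null. The correction for GC content and length gave a median of 0.37, 54 higher and 5 lower; the cause was not tested. The replicate block gave 60 higher, 1 lower, 19 at the 1.5-fold null and a median of 0.43, losing Mrps15 and Mrps34. Equal-numbered libraries deviated together with correlations of 0.00156, 0.014 and 0.00357 over 19783 genes, so the numbers were not taken as pairs, and not every library correlated best with its own number.

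Some members changed direction. With the GC and length correction these were Mrps15 (-0.07), Mrps33 (-0.05), Mrpl53 (-0.05), Mrps21 (-0.03), Mrps23 (-0.09), Mrps24 (-0.16), Mrpl44 (-0.11), Mrpl9 (-0.10) and Mrps18c (-0.23), of which Mrps24 and Mrps18c passed as lower (adjusted p of 0.0171 and 0.0224). Mrps15 and Mrps33 stood at 0.16 and 0.19 without the correction. With upper-quartile scaling they were Mrps25 (-0.02), Mrpl9 (-0.02), Mrps26 (-0.04) and Mrps18c (-0.05), and with library totals Mrps26 (-0.02) and Mrps18c (-0.02). Mrps18c was at -0.01 with limma-voom and with the replicate block, and Mrpl24 at 0.01 without the filter. Leaving out each library gave -0.11 to 0.15 for Mrps18c, -0.04 to 0.03 for Mrpl24, -0.02 to 0.04 for Mrps26 and -0.01 to 0.10 for Mrps25. Of these members only Mrps15 had passed the test as reported. Each member had at least 343 counts in each library; with 3 libraries a tissue, the number of replicates also limits the precision.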
